A study of Mus musculus with 8 samples.

Results

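The nuclear genes of the mitochondrial respiratory chain were described at their promoters in formalin-fixed paraffin-embedded (FFPE) mouse spleen. Members were the protein-coding genes on the autosomes whose symbols start with the names of complex I, complex III, ATP synthase or the nuclear cytochrome c oxidase (complex IV) subunits, together with the 4 subunits of complex II and Cycs. GENCODE vM21 holds 91 such genes among 21827 protein-coding genes. By symbol, they comprise 36 genes of complex I, 4 of complex II, 8 of complex III, 17 of complex IV and 17 of ATP synthase. The rest are 1 cytochrome c gene and 8 complex I assembly factors (Ndufaf genes, which the symbol rule also takes in). Around each annotated transcription start site (TSS), the promoter was taken as the 1000 bp before and the 200 bp after it. The rule uses no measured value. A further 3 genes that match by symbol lie on the X chromosome and were left out by the rule.

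Respiratory complexes pass electrons from NADH (complex I) and succinate (complex II) through complex III and cytochrome c to oxygen at complex IV, and ATP synthase uses the resulting proton gradient. Most of their subunits are encoded in the nucleus and are used by nearly every cell, so their promoters are textbook housekeeping promoters, often rich in CpG and bound by NRF1 and by the ETS factor GABP. A few subunits have paralogs used in particular organs, such as heart and muscle or testis.

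All samples came from spleens of 8-week-old C57BL/6J mice of both sexes, fixed in formalin for 16 h and embedded in paraffin, of which a 1-mm core was used, with no allele or drug. In ATAC-seq, Tn5 transposase cuts and tags open DNA, so fragments pile up at accessible sites. The tagged material was then split, and one portion had its crosslinks reversed to release DNA from protein (+RV) while the other did not (−RV). Bulk ATAC-seq gave 2 libraries a condition, which are technical replicates, so that their spread covers no difference between animals, and single-cell ATAC-seq had 2 labelled samples a condition. The deposited fragment files pool those samples into 1 set a condition, so that single-cell comparisons had no replicate and no test.

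The bulk lists held 32288 and 32736 peaks (−RV) and 47755 and 47864 peaks (+RV), and the reads behind them are unknown here. The single-cell sets held 1592372 (−RV) and 13703580 (+RV) nuclear fragments from 2406 and 18620 barcodes, of which 2 barcodes occurred in both. Member promoters received 1745 and 15953 fragments, a median of 17 (range 0 to 61) and 156 (range 2 to 591) a gene, so that −RV levels of single members were imprecise. All intervals below are 95% intervals of counting error. The spleen label was checked on marker genes with a promoter peak in both libraries of −RV and +RV. These were 9 and 10 of 10 B cell and 7 and 9 of 11 T cell markers, beside 47.7% and 53.6% of all genes. Macrophage markers numbered 4 and 6 of 9, erythroid ones 4 and 7 of 9, and endothelial ones 1 and 6 of 7. Hepatocyte markers numbered 0 of 5, muscle markers 1 of 8 and testis germ cell markers 2 of 6 in each condition. Of 8 pancreatic acinar markers 1 was called in each condition, but their median single-cell level was 4.44 CPM per kb in −RV and 1.58 in +RV, beside 2.29 and 3.04 for B cell and 2.09 and 2.03 for T cell markers. The single-cell barcodes had also been selected by the authors on the fraction of reads near a TSS, in a window like the promoter used here. In the deposited sets the share of nuclear fragments in protein-coding promoters ran from 5.83% to 44.4% a barcode in −RV (median 12.3%) and from 4.35% to 45.4% in +RV (median 13.8%). The part of that selection in promoter levels, shares and ratios was not tested.

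In bulk, nearly all members were called accessible. A gene counted as called in a condition when each of its 2 libraries had a peak reaching into the promoter. In bulk, how many cells have an open site and how open it is per cell cannot be told apart. Of 91 members, 82 (90.1%) were called in −RV and 83 (91.2%) in +RV, beside 47.7% and 53.6% of all protein-coding genes. Each −RV library had a peak at 82 members and each +RV library at 83, a difference of 1 gene (exact two-sided permutation test, p = 0.333, the smallest that 2 against 2 libraries allow). With the peak summit required inside the window the difference was −1. All genes of complex II (4), complex III (8), the assembly factors (8) and Cycs were called in both conditions. Called members of complex I numbered 34 of 36 in each condition, and those of complex IV 12 of 17 in each. ATP synthase had 15 of 17 in −RV and 16 in +RV.

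Peaks at members were among the stronger ones. For the 82 members with a peak in all 4 libraries, the best peak lay at a median of the 88.2nd and 88.7th percentile of its −RV list and the 91.2nd and 92.4th of its +RV list, ranked by −log10 p. Over all 10404 genes with a peak in all 4 libraries the medians were 83.8, 84.1, 89.7 and 89.7. The median fold over local background at members was 7.82 and 7.68 in −RV and 8.76 and 8.68 in +RV, a difference of 0.97 between conditions (exact permutation test, p = 0.333). Both +RV libraries lay above both −RV libraries, and the same medians over all genes were 6.95, 6.78, 7.72 and 7.77.

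Single members followed the general pattern of bulk folds. Both +RV folds lay above both −RV folds at 44 of 82 members (53.7%), beside 50% of all genes called in the 4 libraries, and below them at 10 members (12.2%), beside 12.3%. Peaks were also wider, with member medians of 871.5 and 883 bp (−RV) and of 1013.5 and 1034.5 bp (+RV), a difference of 146.75 bp ( exact permutation test, p = 0.333). At 59 members (72%) both +RV widths exceeded both −RV widths, beside 79.2% of all genes. The −RV peaks of members were wider than the medians over all genes, which were 740 and 762 bp, whereas the +RV medians over all genes were 1037 and 1034 bp.

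**Figure D1:**
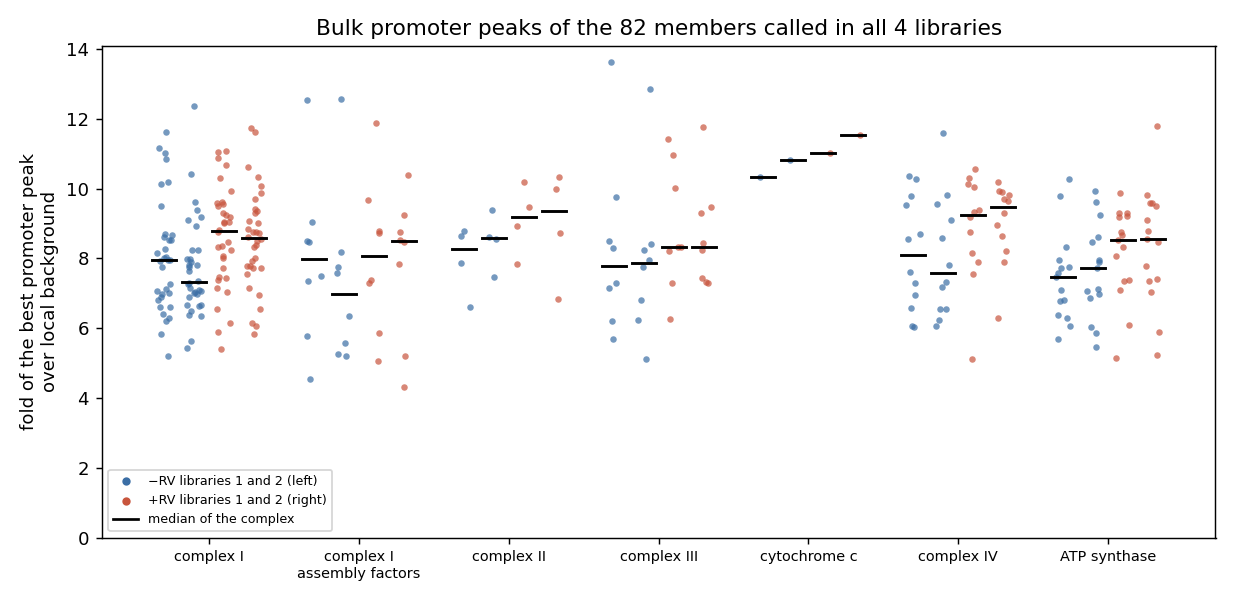
Fold of the best promoter peak over local background (vertical axis, from 0) for the 82 members with a peak in all 4 bulk libraries, grouped by complex. Points are genes, coloured by condition with libraries 1 and 2 side by side, and bars are medians. Every complex spans overlapping folds, and Cycs lies between 10.3 and 11.5.

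Bulk folds of the complexes overlapped. The plot of folds by complex shows medians between 6.97 and 8.59 in the −RV libraries and between 8.06 and 9.47 in the +RV libraries, apart from cytochrome c, which is a single gene. Cycs, the mobile electron carrier and a trigger of apoptosis once released, had folds of 10.3 and 10.8 in −RV and 11.03 and 11.5 in +RV. Uqcrq, a small subunit of complex III, had 13.6 and 12.9 in −RV, the highest member folds there, and 11.4 and 11.8 in +RV. Ndufaf8, an assembly factor of complex I, had 12.5 and 12.6 in −RV and 11.9 and 10.4 in +RV. Both genes lay lower in +RV. They are shown here for their high −RV folds, so that a lower +RV fold can follow from that choice alone.

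Single-cell levels were read as fragments with their midpoint in the promoter, scaled to the total of nuclear fragments as CPM, the usual unit for such counts, and, between genes, per kb of promoter window. The median member had 8.04 CPM per kb in −RV and 9.17 in +RV, against 1.57 and 2.01 over all genes, and in each set 84 of 91 members lay above the median of all genes. Member promoters held 0.110% (0.105 to 0.115) of −RV and 0.116% (0.115 to 0.118) of +RV nuclear fragments. Of the barcodes, 49.3% in −RV and 53.4% in +RV had at least 1 fragment at any member, a mean of 0.725 and 0.857 a barcode. Levels below are therefore sums over barcodes.

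Complex I, which takes electrons from NADH, had a median of 7.84 CPM per kb in −RV and 8.93 in +RV over the 36 genes grouped with it by symbol. Ndufs8, an iron-sulphur subunit, had 25.8 CPM per kb (19.7 to 33.1) in −RV and 16.4 (14.7 to 18.2) in +RV. Ndufa11, a membrane-arm subunit, had 21.4 (15.4 to 28.9) and 19.5 (17.4 to 21.7). Ndufa4, named for complex I but found with complex IV, had 13.5 (8.95 to 19.5) and 23.3 (21.1 to 25.7), the highest +RV level of any member. In −RV the intervals of Ndufs8 and Ndufa11 overlapped, and in +RV those of Ndufa4 and Ndufa11 did. The 8 assembly factors had medians of 10.3 and 10.6, with Ndufaf8 at 16.5 and 15.0, Ndufaf4 at 14.1 and 16.04 and Ndufaf7 at 13.6 and 10.3 CPM per kb, the 3 highest of these factors by the mean CPM of both sets.

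The 4 subunits of complex II, which oxidises succinate and is encoded wholly in the nucleus, had similar promoters. Sdha, the flavoprotein, had 9.93 CPM per kb (5.98 to 15.5) in −RV and 14.5 (12.7 to 16.4) in +RV. Sdhb, the iron-sulphur subunit, had 10.5 (6.39 to 16.2) and 10.9 (9.34 to 12.6). The membrane anchors Sdhc and Sdhd had 7.25 and 4.71 in −RV and 9.93 and 10.4 in +RV. In −RV the intervals of all 4 overlapped, whereas in +RV Sdha lay above the others, whose intervals overlapped. The window of Sdha overlaps that of Ccdc127 on the other strand, which had 19 and 261 fragments. Part of the Sdha signal therefore counts for both genes.

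Complex III, which passes electrons to cytochrome c, had medians of 9.15 and 9.36 CPM per kb. Uqcrh, its hinge subunit, stood at 23.8 (17.5 to 31.6) in −RV and 19.6 (17.5 to 21.8) in +RV, Uqcrq at 18.9 and 17.6, and Uqcr10 at 9.93 and 9.6. Cycs had 14.6 (9.73 to 21.2) and 19.4 (17.4 to 21.7). In +RV the levels of Uqcrh, Ndufa11, Cycs and Atp5b, which encodes the catalytic subunit of ATP synthase and had 18.8 (16.8 to 21.1), did not differ beyond counting error.

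Complex IV, which reduces oxygen, had the lowest medians, 5.92 and 6.48 CPM per kb, and the widest range on a log scale, 0.122 to 15.4 in +RV. Cox7a2l, a subunit linked to supercomplexes, led in +RV with 15.4 (13.5 to 17.4), followed by Cox7a2 with 13.6 (11.9 to 15.5), and their intervals overlapped. ATP synthase had 9.78 in −RV and 8.20 in +RV, from 1.76 at Atp5f1 to 18.8 at Atp5b in +RV. Atp5j, a peripheral stalk subunit, had the most fragments of all members in +RV (591) and 17.1 CPM per kb over a window made of several starts, and Atp5d, a subunit of the central stalk, had 12.8 and 10.7.

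**Figure D2:**
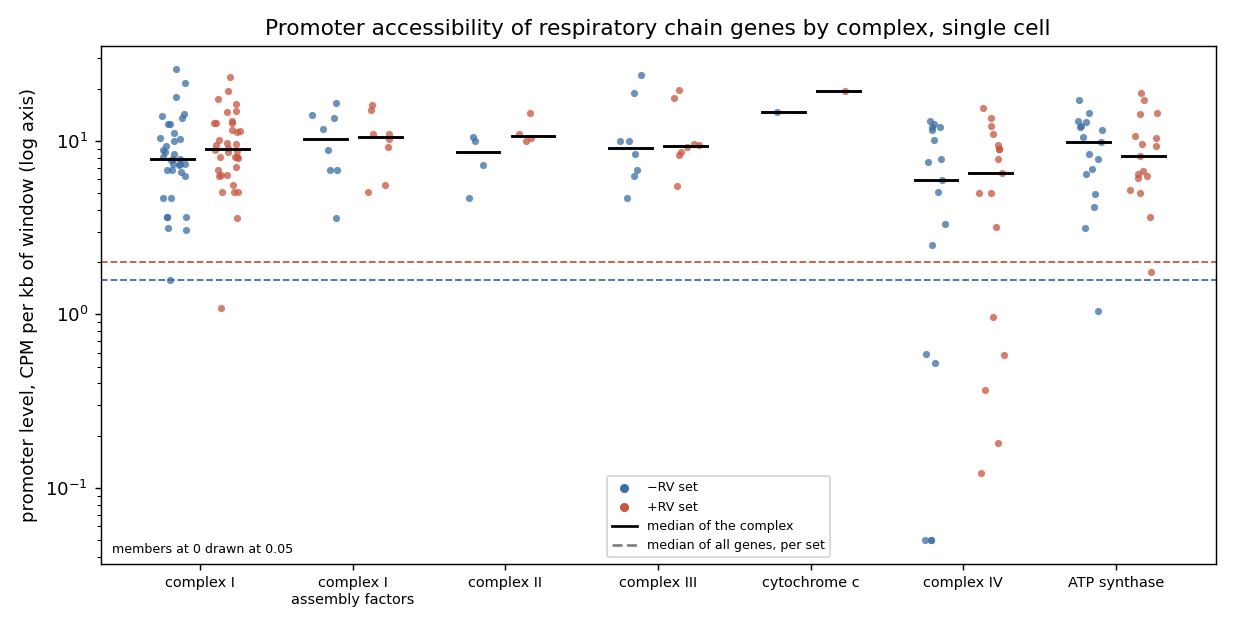
Promoter level of each of the 91 members in CPM per kb of window (logarithmic vertical axis) by complex, in the −RV and +RV single-cell sets. Points are genes, black bars medians of the complex, and dashed lines the median of all protein-coding genes in each set (1.57 and 2.01). Members at 0 are drawn at the foot of the axis, and complex IV reaches from 0.122 to 15.4 in +RV, the widest range on this axis.

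The low end of complex IV was made of organ-specific paralogs. The 8 tissue-restricted isoforms among the members (Cox4i2, Cox6a2, Cox6b2, Cox7a1, Cox7b2, Cox8b, Cox8c and Ndufa4l2) had medians of 0.557 CPM per kb in −RV and 0.778 in +RV, and 2 of 8 were called in bulk. Without them 80 and 81 of 83 members were called (96.4% and 97.6%). No bulk peak touched Cox4i2 (lung), Cox6a2 and Cox8b (heart and muscle), Cox7b2 and Cox8c (testis) or Ndufa4l2 (induced by hypoxia) in any library. In all, 8 members had no bulk peak anywhere (8.79%), beside 43.5% of all genes, and 6 of these 8 were such isoforms.

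Each paralog set was compared within its family, as the plot of paralogs shows. Cox4i1, the ubiquitous form, had 7.84 CPM per kb (4.39 to 12.9) in −RV and 10.998 (9.45 to 12.7) in +RV, and Cox4i2 0.592 (0.0717 to 2.14) and 0.585 (0.341 to 0.936). Cox6a1 had 12.0 and 9.48, against 0.523 and 0.972 for Cox6a2, which rested on 1 and 16 fragments. Cox8a had 13.1 and 8.99. Cox8b and Cox8c had no −RV fragment and 6 and 3 +RV fragments. Having no −RV fragment allows up to 1.88 CPM by a one-sided limit of 3 counts, narrower than the two-sided intervals used elsewhere. Within these families the ubiquitous and the restricted forms did not overlap in counting error in either set.

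The muscle form Cox7a1 and the testis form Cox6b2 differed from the other isoforms, since both had a peak in all 4 bulk libraries. Cox7a1 had folds of 6.57 and 7.18 in −RV and 7.91 and 7.91 in +RV. Its single-cell level was 2.51 CPM per kb (0.815 to 5.86) and 5.02 (4.01 to 6.20), below Cox7a2 with 12.5 and 13.6. Cox6b2 had folds of 6.03 and 6.07 in −RV and 5.13 and 6.29 in +RV. It had 3.32 (1.34 to 6.85) and 3.20 (2.43 to 4.14) CPM per kb, and the ubiquitous Cox6b1 5.07 (2.43 to 9.33) and 6.48 (5.33 to 7.81), so that this pair was separated in +RV and overlapped in −RV. Of the muscle markers only Actn2, and of the 6 testis germ cell markers only Prm1 and Zpbp, had a bulk peak in both libraries of either condition. The summed promoter level of the muscle list was 3.14 CPM in −RV and 6.28 in +RV, and that of the testis list 6.91 and 9.63. Their part in the peaks at Cox7a1 and Cox6b2 was not tested.

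**Figure D3:**
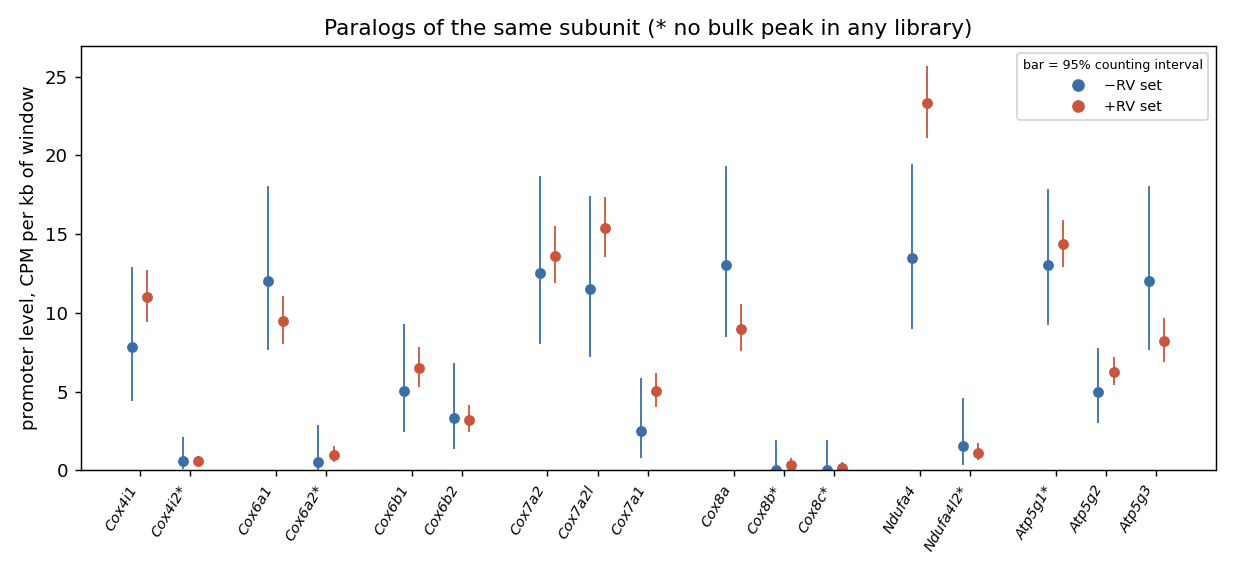
Promoter level in CPM per kb of window (vertical axis, from 0) of paralogs of 7 subunits in the −RV and +RV single-cell sets, with 95% counting intervals as bars. Gene names with a star had no bulk peak in any library. Restricted forms sit near 0 except Cox7a1 (5.02 in +RV) and Cox6b2 (3.20), and Atp5g1 carries a star in spite of 14.4 CPM per kb in +RV.

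The 3 genes of the ATP synthase c ring encode the same mature protein and differ in their promoters. Atp5g1 had 13.01 CPM per kb (9.21 to 17.9) in −RV and 14.4 (12.9 to 15.9) in +RV, Atp5g2 4.97 (2.99 to 7.76) and 6.26 (5.43 to 7.17), and Atp5g3 12.02 (7.62 to 18.03) and 8.20 (6.87 to 9.70). In +RV the order was Atp5g1, Atp5g3 and Atp5g2, and the intervals of Atp5g3 and Atp5g2 overlapped.

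Atp5g1 and the complex I subunit Ndufa6 had no bulk peak although their single-cell signal was high. Atp5g1 had 38 fragments from 36 barcodes in −RV and 361 from 344 barcodes in +RV, the 91.9th percentile of all genes by CPM per kb in +RV. Ndufa6 had 36 fragments from 35 barcodes and 258 from 242, the 78.5th percentile in +RV. Around Atp5g1, no peak of any of the 4 lists occurred over 247 kb (chr11:96064845-96311412, mm10), where 10 protein-coding genes start and only Atp5g1 reached a mean of 10 CPM. Around Ndufa6 the gap spanned 135 kb (chr15:82244923-82379784), with 7 genes, of which 3 reached 10 CPM. Of the 14 members with a mean of at least 20 CPM these were the 2 (14.3%) without a bulk peak, beside 3.02% (50 of 1653) of all genes at that level. The names of the bulk lists mark them as filtered against a blacklist, and the part of such a filter in these gaps was not tested.

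Only Atp5f1, a peripheral stalk subunit of ATP synthase, was called in +RV and in neither −RV library, beside 3.48% of all genes. Its −RV peaks ended 259 and 176 bp short of the promoter window, with folds of 9.15 and 9.47, and its +RV peaks, with 9.11 and 9.59, were wider and reached into it. RefSeq places the start of this gene 836 bp downstream of the GENCODE start. In the window of the RefSeq start Atp5f1 had 20.7 CPM in −RV and 15.9 in +RV, against 1.26 and 2.12 in the GENCODE window. With RefSeq starts for the members that have one, an alternative added after these values were seen, 83 members were called in each condition and the difference was 0.

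The summed promoter signal of members was close in the single-cell sets. It was 1096 CPM in −RV (1045 to 1148) and 1164 in +RV (1146 to 1182), a ratio of 1.06 (1.01 to 1.12), whereas as a share of fragments in all promoters it was lower in +RV, 0.872% (0.831 to 0.913) against 0.817% (0.804 to 0.829), a ratio of 0.937 (0.892 to 0.985). With fragments of 50 to 100 bp alone the CPM ratio was 0.845. The direction thus depended on the scale and on fragment length, and all promoters together made up 12.6% of −RV and 14.3% of +RV nuclear fragments. Marker genes of other cells also differed between the sets. The summed level of the 8 pancreatic acinar markers was 57.1 CPM in −RV and 29.1 in +RV (ratio 0.509, 0.405 to 0.647), that of the 9 erythroid markers 59.7 and 46.6 (0.780, 0.628 to 0.979), and that of the 10 B cell markers 45.2 and 56.1 (1.24, 0.974 to 1.603). Their part in the member ratios was not tested. The median log2 ratio (pseudocount of 1 CPM) was 0.12 over 91 members and 0.16 over all genes. By complex the ratio of sums was 1.411 (1.09 to 1.86) for complex II, 1.09 (1.01 to 1.18) for complex I, 0.985 (0.844 to 1.15) for complex III, 1.06 (0.919 to 1.22) for complex IV and 1.00 (0.901 to 1.11) for ATP synthase. The complex II ratio rested on 62 −RV fragments and includes the windows that Sdha and Sdhd share with neighbours.

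Of 57 members with a mean of at least 10 CPM, 6 (10.5%) were higher in +RV by at least 0.5 on the log2 scale, beside 15.7% of all such genes, and 6 (10.5%) were lower by as much, beside 3%. The higher ones were Ndufa4, Ndufa13, Ndufs1, Cox7c, Ndufaf5 and Sdha. The lower ones were Ndufs8, Cox5a, Atp5j2, Atp5s, Atp5g3 and Cox8a, of which 3 belong to ATP synthase by symbol. These counts depend on the processing: with fragments of 50 to 100 bp alone 1 member was higher and 20 were lower, and with windows of 500 bp either side 5 were higher and 1 was lower. The interval of the ratio lay above 1 at 5 of 57 members (8.77%), beside 9.93% of genes, and below 1 at 1 (1.75%), beside 1.9%. The log2 ratios of these 57 had an SD of 0.36 around a median of 0.05, against 0.30 that counting error alone gives, and over all 5831 such genes the SD was 0.35 around 0.15.

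Ndufs8 was the member whose ratio interval lay below 1. It had 61 fragments in −RV and 334 in +RV, that is 38.3 and 24.4 CPM, a ratio of 0.636 (0.483 to 0.850). Its bulk folds were 11.03 and 10.4 in −RV and 9.02 and 7.72 in +RV, without overlap. Ndufa4 lay the other way, with 17.6 and 30.4 CPM (28 and 417 fragments, ratio 1.73, 1.18 to 2.64), and its bulk folds were 6.60 and 6.38 in −RV and 7.15 and 7.16 in +RV. Cox7c, a small subunit of complex IV, had 13.2 and 21.5 CPM (ratio 1.63, 1.04 to 2.67) and bulk folds of 6.95 and 6.54 against 9.39 and 9.64.

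The assays did not always point the same way. Of the 6 that were higher in the single-cell set, 5 had both +RV bulk folds above both −RV folds and 1 (Ndufa13) overlapped. Of the 6 that were lower, Ndufs8 had lower bulk folds, 4 (Atp5s, Atp5g3, Atp5j2 and Cox5a) had higher ones, and Cox8a overlapped. Over all genes with a peak in all 4 libraries, both +RV folds lay above both −RV folds at 50% and below them at 12.3%. Higher bulk folds in +RV were thus the more common direction in general. Bulk folds rest on the local background of each list and CPM on the whole set, so the scales differ.

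**Figure D4:**
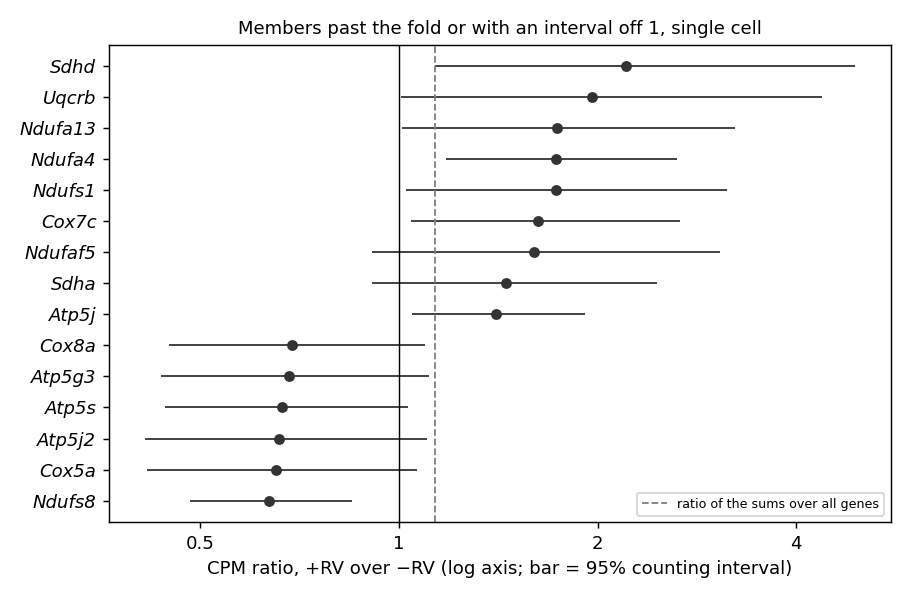
CPM ratio of +RV over −RV (horizontal logarithmic axis) with its 95% counting interval for the 15 members past 0.5 on the log2 scale at a mean of 10 CPM or with an interval that leaves out 1. The dashed line is the ratio of the sums over all genes (1.13). Sdhd is highest at 2.21 and Ndufs8 lowest at 0.636.

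Without a minimum level, 7 of 91 members (7.69%) had an interval above 1, beside 4.25% of all genes, and 1 (1.1%) below 1, beside 1.29%. The 2 that this adds were Sdhd and Uqcrb. Sdhd had 9 fragments in −RV and 171 in +RV, 5.65 and 12.5 CPM, a ratio of 2.21 (1.14 to 4.91), with bulk folds of 8.65 and 8.57 in −RV and 8.92 and 10 in +RV. Its window is nearly that of Timm8b, a mitochondrial import chaperone read from the other strand, which had 9 and 172 fragments. Uqcrb, a subunit of complex III, had 5.65 and 11.1 CPM (ratio 1.96, 1.01 to 4.37), with bulk folds of 5.69 and 6.23 in −RV and 8.21 and 8.23 in +RV. The same folds were found at Gm10767, which had 11 and 167 fragments. The bulk peak therefore cannot be assigned to Uqcrb alone. The signs of Sdhd, Uqcrb, Ndufa4, Cox7c, Ndufaf5, Sdha and all 6 lower members held in all 12 other settings of the single-cell measure, while Ndufs1, Ndufa13 and Atp5j each turned in 1. Sizes varied, and the log2 ratio came as close to no change as 0.008 for Sdha, 0.095 for Ndufaf5 and −0.055 for Atp5g3. The settings draw on the same fragments, and the members were picked by the main value.

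Fragments at member promoters were longer in +RV. Long fragments, those exceeding the DNA wrapped on a nucleosome core, made up 4.53% (3.60 to 5.61) in −RV and 30.3% (29.5 to 31.0) in +RV. Over all protein-coding promoters the shares were 4.83% and 29.3%, and over all nuclear fragments 2.29% and 20.4%. Members had a median fragment length of 75 bp without and 97 bp with reverse crosslinking. The −RV member share lay within counting error of all promoters, and the +RV share was slightly above them.

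Short fragments marked the core promoter in both sets. Midpoints of fragments up to 100 bp around the TSS of members were densest at 30 bp upstream in −RV and 17 bp upstream in +RV (running sum over 51 bp), against 56 and 49 bp over all genes. Of the midpoints within 1 kb, 26.8% and 26.0% fell in the 150 bp upstream of the TSS, against 23.9% and 23.2% over all genes. Bulk summits were likewise near the start, with medians of 25.5 and 24 bp upstream in −RV and 10.5 and 12.5 bp upstream in +RV, against 47, 49, 33 and 32 bp over all genes.

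Long fragments flanked the start in +RV. Midpoints of the 5725 long +RV fragments within 1 kb of member starts had maxima 143 bp upstream and 107 bp downstream, with a dip between them, and over all genes the maxima were at 126 and 102 bp. The −RV set held 90 such fragments at members, of which 40% lay in the 150 bp upstream and 10% in the 200 bp downstream, against 20.3% and 25.4% in +RV. Over all genes the same shares were 30.7% and 17.7% in −RV and 18.4% and 21.9% in +RV, so that the upstream lean in −RV was general. With 90 fragments the member shares are imprecise. The plot of positions around the TSS shows these shapes.

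**Figure D5:**
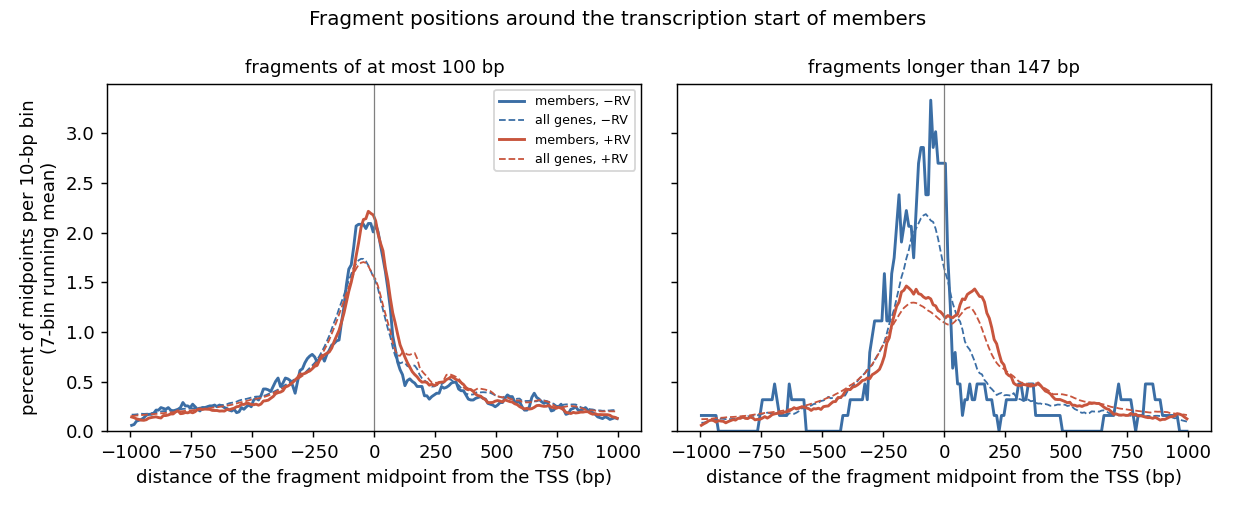
Percent of fragment midpoints per 10-bp bin (running mean over 7 bins) by distance from the TSS of each gene in bp, for fragments up to 100 bp (left) and longer than nucleosome core DNA (right). Solid lines are the 91 members and dashed lines all genes, in −RV and +RV. Short fragments peak just upstream of the TSS in both sets, and long +RV fragments peak on both sides of it, while the −RV long curve of members rests on 90 fragments.

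Members often shared a promoter with a neighbour. A protein-coding start on the other strand, running away from the member and within 1000 bp upstream or 200 bp downstream, was found for 27 of 91 members (29.7%), beside 9.49% of all genes. Among genes with a peak in all 4 libraries the shares were 27 of 82 (32.9%) and 17.8%. Windows overlapped those of another gene at 29 members (31.9%), beside 12.5%, and such fragments count for both genes. The partners, of which some were chosen after their values were seen, include Gabpa opposite Atp5j, which encodes the DNA-binding subunit of GABP itself, Mrpl47 opposite Ndufb5 and Mrpl36 opposite Ndufs6 (mitochondrial ribosome) and Rps28 opposite Ndufa7 (cytosolic ribosome). Atp5j and Gabpa had the same bulk peak, with folds of 7.46, 7.12, 7.10 and 7.40 in the 2 −RV and 2 +RV libraries. Among members named above for their levels, Ndufa11 lies opposite Vmac, Uqcrh opposite Lrrc41, Ndufaf8 opposite Tepsin and Sdha opposite Ccdc127. The signal of these promoters cannot be assigned to the member alone.

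Promoter sequences from RefSeq (GRCm38.p6, the assembly of mm10), 250 bp before to 50 bp after a start, were matched for 74 members and 16708 genes. In 64 of the 74 the RefSeq start lay within 100 bp of the GENCODE start. Members had a median GC content of 58.5% and an observed-to-expected CpG ratio of 0.833, against 57% and 0.601 over all genes, and 85.1% of them exceeded a ratio of 0.6, against 50.1%. The 4 tissue-restricted isoforms with a sequence had a median ratio of 0.382.

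Motif letters were searched on both strands and a match is a description of letters. The NRF1 core CGCANGCG, where N is any base, occurred in 27 of 74 member promoters (36.5%, 25.6 to 48.5), against 11.8% of all promoters and 19.7% of those with a peak in all 4 libraries. The ETS core CCGGAAG occurred in 17 (23.0%, 14.0 to 34.2), against 12.3% and 20.9%. AANATGGC, the YY1 core, occurred in 15 (20.3%, 11.8 to 31.2), against 6.73% and 9.69%, with 12 of its 16 matches on the strand of the gene and a median position 23.5 bp downstream of the start, and its letters include ATG. The Sp1 core GGGCGG occurred in 35 (47.3%), against 48.2% and 67.2%, and TATAAA in 7 (9.46%), against 13.2% and 6.62%. None of these letter strings contains another.

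The stretches below show where the NRF1 and ETS letters fall in named members, 120 bp up to the base before the RefSeq start, written 5′ to 3′ on the strand of the gene, with NRF1 and ETS matches of either strand in capitals. The first 4 hold the palindrome CGCATGCG, which reads as an NRF1 core on both strands.
Cycs, chr6:50566570-50566689 (minus strand): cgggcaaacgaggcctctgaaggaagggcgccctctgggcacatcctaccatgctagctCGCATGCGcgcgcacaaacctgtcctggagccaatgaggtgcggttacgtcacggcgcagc
Ndufa11, chr17:56717642-56717761 (plus strand): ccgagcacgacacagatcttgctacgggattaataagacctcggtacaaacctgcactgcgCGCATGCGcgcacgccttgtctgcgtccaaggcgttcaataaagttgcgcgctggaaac
Ndufaf4, chr4:24897963-24898082 (plus strand): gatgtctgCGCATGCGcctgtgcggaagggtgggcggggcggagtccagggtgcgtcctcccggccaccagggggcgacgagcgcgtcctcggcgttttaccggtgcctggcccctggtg
Atp5g2, chr15:102671048-102671167 (minus strand): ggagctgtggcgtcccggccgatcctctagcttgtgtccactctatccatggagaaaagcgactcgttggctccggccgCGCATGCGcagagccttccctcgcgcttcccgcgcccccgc
In complex II the promoters of Sdha and Sdhd carry NRF1 letters, 3 times in Sdha and beside an ETS core in Sdhd, and the promoter of Cox6a1 also holds both.
Sdha, chr13:74350241-74350360 (minus strand): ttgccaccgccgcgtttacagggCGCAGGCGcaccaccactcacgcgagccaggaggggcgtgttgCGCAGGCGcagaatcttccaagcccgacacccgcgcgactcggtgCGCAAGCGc
Sdhd, chr9:50603850-50603969 (minus strand): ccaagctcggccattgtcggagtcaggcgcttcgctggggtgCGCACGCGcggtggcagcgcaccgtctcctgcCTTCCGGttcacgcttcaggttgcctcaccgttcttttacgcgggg
Cox6a1, chr5:115348959-115349078 (minus strand): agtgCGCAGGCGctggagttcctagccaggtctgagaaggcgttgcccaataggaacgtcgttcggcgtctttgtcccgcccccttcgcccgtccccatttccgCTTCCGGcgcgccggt
The hinge subunit Uqcrh and the assembly factor Ndufaf8 hold an ETS core within 10 bp of the start.
Uqcrh, chr4:116075071-116075190 (minus strand): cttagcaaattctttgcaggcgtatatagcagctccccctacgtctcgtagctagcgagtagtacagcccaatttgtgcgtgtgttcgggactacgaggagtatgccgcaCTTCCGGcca
Ndufaf8, chr11:120098814-120098933 (plus strand): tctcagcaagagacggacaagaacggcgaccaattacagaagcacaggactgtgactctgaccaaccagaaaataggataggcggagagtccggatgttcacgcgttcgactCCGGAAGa
The ubiquitous Cox8a and the heart and muscle form Cox8b hold no NRF1 or ETS core in this stretch, although an ETS core lies elsewhere in the searched window of Cox8a.
Cox8a, chr19:7217617-7217736 (minus strand): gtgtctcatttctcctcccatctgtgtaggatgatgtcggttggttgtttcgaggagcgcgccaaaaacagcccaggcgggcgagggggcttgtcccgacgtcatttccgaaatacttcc
Cox8b, chr7:140900447-140900566 (minus strand): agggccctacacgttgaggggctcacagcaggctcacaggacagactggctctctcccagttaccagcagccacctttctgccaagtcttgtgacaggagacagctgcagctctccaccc

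Median levels of members with and without each string were compared as a description, with no test. Members with an NRF1 core had a median of 8.37 CPM per kb in −RV and 9.30 in +RV, and those without it 8.89 and 9.17. With an ETS core the medians were 9.32 and 9.30 and without it 8.89 and 9.17. Gaps were wider for the other strings in −RV, with 10.5 against 7.84 for Sp1, 7.31 against 9.93 for YY1 and 7.32 against 9.32 for TATAAA. In +RV the same medians were 9.75 against 8.75, 8.05 against 9.51 and 8.75 against 9.51. Of the 27 members with an NRF1 core 26 were called in +RV, and of the 17 with an ETS core all were, as were 44 of 47 and 53 of 57 without them. Ndufa6 is the member with an NRF1 core and no call.

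Member signal was next compared between barcodes with fragments at marker genes. Barcodes with at least 2 fragments in the genes of 1 marker list and more than in any other list were taken as a group, which names the fragments and not a cell type. In +RV, members had 1111 CPM (1052 to 1173) in the 1348 B cell marker barcodes, 1226 (1141 to 1315) in 747 T cell marker barcodes, 1420 (1289 to 1561) in 316 erythroid ones and 1433 (1302 to 1573) in 278 pancreatic acinar ones, against 1164 over all barcodes. The 223 macrophage and 498 endothelial marker barcodes had 1078 (947 to 1222) and 1194 (1097 to 1298). Few barcodes fell to the remaining lists, with 816 (558 to 1152) in 44 testis germ cell, 1058 (772 to 1416) in 46 muscle and 1861 (1084 to 2979) in 10 hepatocyte ones. Erythroid and acinar groups thus lay above all barcodes and the testis germ cell group below, where at least 3 marker fragments gave 1302 instead. As a share of all promoter fragments, the B cell, T cell, erythroid and acinar values were 0.810%, 0.847%, 0.883% (0.802 to 0.970) and 0.831% (0.756 to 0.912), against 0.817%, so that no group lay outside counting error. Erythroid and acinar marker barcodes had 16.1% and 17.2% of fragments in any promoter, against 14.3% over all. In −RV the groups held 4 to 124 barcodes and all their intervals included the value of all barcodes.

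Other genes of the pathway were mostly called too. Of 35 assembly factors outside the symbol rule, 34 were called in each condition, beside 47.7% (−RV) and 53.6% (+RV) of all genes, with medians of 8.12 and 8.99 CPM per kb. All 12 enzymes of the citric acid cycle were called, with 9.24 and 9.78. Of 78 mitochondrial ribosome genes 77 were called, with 6.45 and 7.75. Higher in +RV by at least 0.5 on the log2 scale were 5 of 21 assembly factors with a mean of at least 10 CPM, 0 of 8 citric acid cycle genes and 4 of 36 ribosomal genes, beside 15.7% of all such genes, and lower were 0, 0 and 1, beside 3%. Cyc1, the cytochrome c1 subunit of complex III whose symbol the rule leaves out, was called in all 4 libraries with 7.32 and 6.08 CPM per kb, and the testis cytochrome c gene Cyct had no bulk peak.

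Regulators of mitochondrial biogenesis were called in 13 of 14 cases in −RV and 14 in +RV, beside 47.7% and 53.6% of all genes. Of 10 with a mean of at least 10 CPM, 3 were higher in +RV by at least 0.5 on the log2 scale, beside 15.7% of all such genes. Lower by as much were 0, beside 3%. The median log2 ratio of these 10 was 0.09, against 0.15 over all such genes. Nrf1, itself among them, had 10.7 CPM in −RV and 12.8 in +RV. Tfam, the packaging and transcription factor of mitochondrial DNA, had 7.54 and 15.6 CPM (ratio 2.07, 1.16 to 4.07), with bulk folds of 6.61, 7.19, 7.52 and 7.05 that overlapped. Ppargc1a, an inducible coactivator of brown fat and muscle, had 2 and 28 fragments and a peak in 1 of 2 −RV libraries.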

How the data were processed

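FFPE spleen nuclei were profiled by ATAC-seq in 4 bulk libraries and by split-pool barcoding in 2 pooled single-cell sets. The authors deposited 1 peak list a bulk library on mm10 with a score, a fold ratio over local background, and −log10 p and q values of each peak. The methods describe MACS2 calling and a blacklist filter for the single-cell data, while the sources used here do not name the caller of the bulk lists, which have the MACS2 layout and names that mark a blacklist filter. Among the tools listed by the submitters are Bowtie2 2.4 and SAMtools 1.15, as well as Picard 1.119 and SEACR 1.3. The deposited single-cell files hold other values, namely start, end and barcode of each fragment, for barcodes with at least 500 fragments that were also selected on the fraction of reads near a TSS, cut at 75 bp and 50 bp reads. Pooled sets were assigned to a condition by an abbreviation shared with the bulk lists.

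Promoters came from 41433 protein-coding TSSs of the GENCODE vM21 basic annotation. Fragments were assigned by midpoint and scaled to nuclear fragments of the main chromosomes. Bulk conditions were tested over libraries by exact permutation (two-sided), and intervals are exact Poisson, binomial or conditional binomial. Members and lists were chosen with earlier results of these data known. Named genes were the 3 highest of each complex, members without a bulk peak or with a differing call, those past 0.5 on the log2 scale or with a ratio interval off 1, complex II and paralog sets. RefSeq promoters were matched by Entrez gene ID. Ratio intervals were checked on simulated counts, and counting and peak overlap against a brute-force count at randomly drawn genes. The work used Python 3.11.15, numpy, pandas and SciPy.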

Additional observations from a re-analysis of the deposited data

How the results depend on the processing

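Members called in bulk kept their count within 1.5 times under a −log10 q of at least 5, merging of peaks within 150 bp, equal numbers of best-ranked peaks, other windows, 1 TSS a gene, a peak in at least 1 library and RefSeq starts. The difference of 1 member between conditions turned to −1 when the summit had to lie in the window (81 and 80 called), and was 0 for windows of 500 bp either side. Restricted to members that share no window with another gene, which by construction are fewer, 53 and 54 were called. Leaving out each library gave a difference of 1 to 1, 82 to 82 and 83 to 83 members called, 0.903 to 1.04 in the median fold, and 136 to 157 bp in the median width. With the replicate block the differences were 1 member, a fold of 0.971 and 146.75 bp (exact permutation test, p = 0.5, the smallest for 2 pairs), and pairing changed no call. Deviations of same-numbered libraries correlated at −0.00889 over 10404 genes and at −0.12 over the 82 members. With 2 libraries a condition, these values cannot tell whether same-numbered libraries came from the same tagged material.

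The single-cell ratio of member sums, 1.06, was 0.845 with fragments of 50 to 100 bp, 0.965 with +RV weighted to the −RV lengths and 0.937 when scaled to fragments in all promoters, and the median log2 ratio of 0.12 became −0.15, −0.00496 and −0.052. Members higher past the fold, 6 as reported, were then 1, 2 and 3, and they were 15 without a minimum CPM and 0 at a mean of 30 CPM. Members lower past the fold, 6 as reported, were 20 with fragments of 50 to 100 bp, 16 with barcodes of at least 1000 fragments, and 1 each with windows of 500 bp either side, windows of 2000 bp up to 500 bp down, a pseudocount of 5 CPM, and a mean of 30 CPM, where only 2 members remain. The cause was not tested. The share of long fragments was 6.12% (−RV) and 31.7% (+RV) in barcodes of at least 1000 fragments, and 10.4% and 39.5% for a limit of 120 bp. With at most 1 mismatch the NRF1 core occurred in 75.7% of members and 48.0% of all promoters. Depth limits −RV members to a median of 17 fragments.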

Other observations

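Barcodes were also divided, after the data were seen, at the median share of mitochondrial fragments of their set (6.19% in −RV and 5.63% in +RV). In +RV, barcodes above it had 1240 CPM at member promoters (1213 to 1267) and those at or below it 1095 (1071 to 1119). They also had more fragments in any promoter, 15.0% against 13.5%, and as a share of promoter fragments members held 0.824% (0.806 to 0.842) against 0.810% (0.792 to 0.828), intervals that overlap. In −RV the values were 1168 (1092 to 1247) and 1031 (963 to 1102) CPM, and 0.874% and 0.870% of promoter fragments. Whether the mitochondrial share bears on member promoters was not tested.

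Across the 82 members with a peak in all 4 libraries, the mean +RV bulk fold and the +RV single-cell level per kb had a Spearman correlation of 0.173 (Pearson 0.182 on log2 values), a description across genes, which are not independent. Single-cell levels of the 91 members in −RV and +RV had a Spearman correlation of 0.834, and over all 21827 genes 0.932.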
